A study of Rattus norvegicus with 65 samples.

Results

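The insulin and IGF signalling genes described here are Insr, Igf1r, Irs1, Irs2, Igf1, Igf2, Igfbp2, Igfbp5, Foxo1 and Pik3r1. They were chosen by name, as 10 of the 38513 genes in the count table of rat hypothalamus, and all 10 passed the filter on low counts that left 21871 genes for testing. Insulin and the IGFs bind receptor tyrosine kinases, which phosphorylate the adaptors IRS1 and IRS2. The adaptors recruit PI3K, whose lipid product activates the kinase AKT, and AKT keeps FOXO1 out of the nucleus. In the hypothalamus this pathway is known for its part in restraining food intake and in control of hepatic glucose output, while IGF-binding proteins hold the IGFs in the extracellular fluid.

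RNA of the hypothalamus of 65 adult male Wistar rats was sequenced, 1 library per animal, in 2 experimental periods called batch A (37 animals) and batch B (28 animals). RYGB rats (n = 14) had undergone Roux-en-Y gastric bypass and sham rats (n = 11) a sham operation. Body-weight-matched rats (BWM, n = 7), which the paper's abstract lists as sham-operated too, had chronic food restriction to follow the weight of the RYGB group. The paper reports that BWM rats were heavier than RYGB rats at the end. Liraglutide, a GLP-1 receptor agonist (n = 5), the gut peptide PYY3-36 (n = 4) and PYY3-36 + liraglutide (n = 10) were each set against saline (n = 8), and 6 further animals are labelled lean. The animals (for the lean group the labels state no diet) had been fed a high-fat diet to induce obesity beforehand, had then been given high- and low-fat food, freely or, in BWM rats, in the amounts RYGB rats ate, and had been fasted before they were killed weeks after the intervention. BWM and lean rats were all in batch A, PYY3-36- and liraglutide-treated rats were all in batch B, and RYGB, sham, saline and PYY3-36 + liraglutide rats were in both.

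Values are CPM, the counts scaled to the TMM-adjusted library size, and the libraries held between 20040821 and 36539714 counts on genes. Differences were tested with the quasi-likelihood test of edgeR, with the batch as a term, and p-values were adjusted by Benjamini-Hochberg over the 21871 genes. A gene was called where the adjusted p was below 0.05 and the log2 fold change exceeded 1 in size. Since whole tissue was measured, fewer cells of a type and less RNA per cell cannot be told apart.

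The labelled tissue was checked with 10 hypothalamic markers, among them Avp, Oxt, Pmch, Hcrt and Pomc. Their summed level was under 200 CPM in 12 libraries, at most 177 CPM, whereas it ran from 443 to 8202 CPM in the other 53 libraries. The 12 libraries were sham 2, 6 and 10, BWM 1, lean 2 and 5, saline 3 and 4, liraglutide 3 and 4, PYY3-36 2 and PYY3-36 + liraglutide 8, and 0 were from RYGB animals. Sham 1 had the highest level of 5 thalamus and habenula markers of all libraries (753 CPM against a median of 51.5 CPM), and BWM 5 had 76838 CPM of anterior pituitary markers. RYGB 11 had the highest ribosomal protein score of all libraries, 0.84, where the score is the mean of log2(CPM + 1) over 98 ribosomal protein genes, centred at 0. Values without these libraries are given beside the results they touch most.

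The windows upstream of 4 members are shown because Insr and Irs1 differed together between RYGB and sham animals, and Igf2 and Igfbp2 varied together across animals. Each is the 250 bases before the annotated start, 5′ to 3′ on the strand of the gene, from RefSeq on GRCr8. They lie at chr12:6128804-6129053 (minus strand, Insr), chr9:91053960-91054209 (minus strand, Irs1), chr1:207250476-207250725 (minus strand, the second of 2 Igf2 windows listed) and chr9:81864561-81864810 (plus strand, Igfbp2). Capitals mark TGTTTAC, letters that FOXO proteins are known to bind, and GGGCGG, letters that Sp1 is known to bind, each on either strand.
Insr: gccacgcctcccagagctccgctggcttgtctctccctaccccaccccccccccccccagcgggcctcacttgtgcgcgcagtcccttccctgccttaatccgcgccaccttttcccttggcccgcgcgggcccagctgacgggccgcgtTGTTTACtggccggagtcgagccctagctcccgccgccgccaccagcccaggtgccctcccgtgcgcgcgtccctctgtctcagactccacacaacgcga
Irs1: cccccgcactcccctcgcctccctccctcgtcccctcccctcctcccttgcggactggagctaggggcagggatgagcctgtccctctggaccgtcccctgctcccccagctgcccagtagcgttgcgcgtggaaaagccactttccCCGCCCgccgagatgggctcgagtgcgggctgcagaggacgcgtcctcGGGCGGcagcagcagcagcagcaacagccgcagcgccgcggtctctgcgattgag
Igf2: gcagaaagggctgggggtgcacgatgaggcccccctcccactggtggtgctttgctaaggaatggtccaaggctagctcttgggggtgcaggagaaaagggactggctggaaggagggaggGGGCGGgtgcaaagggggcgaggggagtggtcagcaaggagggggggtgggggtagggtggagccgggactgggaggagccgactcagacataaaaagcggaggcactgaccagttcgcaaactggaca
Igfbp2: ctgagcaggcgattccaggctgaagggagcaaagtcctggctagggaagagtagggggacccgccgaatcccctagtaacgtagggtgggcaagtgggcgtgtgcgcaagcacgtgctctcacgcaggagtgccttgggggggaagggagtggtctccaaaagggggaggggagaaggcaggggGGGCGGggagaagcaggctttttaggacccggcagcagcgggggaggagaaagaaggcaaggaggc
Windows were found for 9 members, and Irs2 had none in the table used. TGTTTAC stood once in the Insr window, in no other member's window, and in 3.21% of 33469 rat windows of this length. GGGCGG was found in 30.5% of all windows and in 5 of the 9 members, once each in Igf1r, the Igf2 window shown and Igfbp2, 2 times in Irs1 and 7 times in Pik3r1. No window held TATAAA, which 12.9% of all windows did. No capital run overlapped another. A match describes the letters and shows no binding.

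Per kilobase of exon, the members spanned a wide range of levels. The median over the 65 libraries was highest for the binding protein gene Igfbp2 (44.4 CPM per kb) and for Igf2 (29.6 CPM per kb), a ligand best known from the meninges and choroid plexus in adult brain. Irs2 (12.1 CPM per kb), Igfbp5 (9.01 CPM per kb) and Pik3r1 (8.40 CPM per kb), the gene of the p85 alpha regulatory subunit of PI3K, came next. Foxo1 (3.98 CPM per kb), Igf1r (2.88 CPM per kb), Insr (2.77 CPM per kb), Igf1 (1.12 CPM per kb) and Irs1 (0.818 CPM per kb) were lower. Neighbours in this order overlapped in their ranges over libraries, so that Irs2 exceeded Irs1 in level per kilobase in every library but not every neighbouring pair was separated. Igfbp2, Igf2 and Igfbp5 varied most between libraries, with a highest CPM 92.1, 50.9 and 46.3 times the lowest, while Irs2 and Pik3r1 varied least, at 1.98 and 2.14 times. The insulin genes themselves were barely detected: Ins1 had 0 counts in all libraries and Ins2 at most 10 counts in any.

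RYGB vs. sham asked what the operation changed in animals that had been through surgery either way. Both receptor genes, the adaptor gene Irs1, Pik3r1, Foxo1 and Igfbp5 were higher in RYGB-treated animals, while Irs2 and the ligand genes did not pass the test. Irs1 was 2.16-fold higher and Insr 1.96-fold, Foxo1 was 1.91-fold higher and Igfbp5 2.44-fold, and Igf1r and Pik3r1 differed by 1.25- and 1.20-fold. With edgeR, 6 of the 10 members had an adjusted p under 0.05, all of them higher in RYGB animals. At that threshold 6.52% of all genes tested were higher and 6.53% lower. The members were chosen with earlier results of these data known, so these shares are a description and no test of the set. An unadjusted p under 0.05 was found for 6 members and 30% of all genes. The fold threshold was passed as well by 2 members, Irs1 and Igfbp5, beside 2.37% of all genes. All 10 members had a log2 fold change above 0, as did 47.9% of all genes, and the median was 0.95 for the members and -0.02 for all genes.

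Insr encodes the insulin receptor (Rnor_6.0, chr12:1682527-1816414, minus strand). In batch A it was measured at 26.1, 8.85, 12, 7.07 and 9.27 CPM in the 5 sham animals, and from 5.05 to 28.2 CPM with a median of 22 CPM in the 11 RYGB animals. In batch B it ran from 3.30 to 8.13 CPM with a median of 5.37 CPM in 6 sham animals and was 16.9, 14.5 and 14.2 CPM in the 3 RYGB animals. All RYGB animals of batch B lay above all sham animals, as held for 7.54% of all genes. In batch A the groups overlapped through the high value of sham 1 and the low value of RYGB 11. Its log2 fold change was 0.97 ± 0.23 (SE, adjusted p = 0.00479). It was 0.71 ± 0.30 within batch A (adjusted p = 0.121) and 1.46 ± 0.37 within batch B (0.029), and the difference between batches, -0.76 ± 0.47, was not significant (0.606). Without the 12 libraries poor in hypothalamic markers it was 0.89 (adjusted p = 0.0422), without sham 1 it was 1.22 (0.000247), and without RYGB 11 it was 1.05 (0.00036).

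Igf1r, the receptor for IGF-1 and IGF-2, differed less. Sham animals had 37.5, 42.7, 28.7, 31.3 and 27.7 CPM in batch A, and RYGB animals between 26.8 and 48.8 CPM with a median of 40.7 CPM. In batch B the 3 RYGB animals had 33.9, 32.1 and 33.3 CPM, and the 6 sham animals between 22.2 and 27.7 CPM with a median of 26.4 CPM. The groups overlapped in batch A and were separate in batch B, as held in this direction for 7.54% of all genes. Igf1r had a log2 fold change of 0.32 ± 0.10 (adjusted p = 0.0258). It was 0.37 without the 12 libraries (0.0424) and 0.30 without sham 5 alone, where the adjusted p rose to 0.0567.

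Irs1, the gene of an adaptor of both receptors (chr9:88033668-88086488, minus strand), was lowest of all members in level and showed the smallest adjusted p. Its values in batch A sham animals were 5.73, 3.34, 3.36, 2.88 and 2.69 CPM, against a range of 2.36 to 8.41 CPM and a median of 5.91 CPM in RYGB animals. In batch B sham animals had 0.776 to 2.3 CPM with a median of 1.31 CPM, and RYGB animals 6.19, 6.52 and 3.31 CPM. Groups were again separate in batch B, as held in this direction for 7.54% of all genes. In batch A they overlapped, and RYGB 11, at 2.36 CPM, lay below every sham animal. Irs1 had a log2 fold change of 1.11 ± 0.23 (adjusted p = 0.00203), with 0.72 ± 0.29 within batch A (0.108) and 1.83 ± 0.37 within batch B (0.00799). The difference between batches was -1.11 ± 0.47 (adjusted p = 0.365). Without the 12 libraries the value was 1.13 (0.0208), without sham 1 it was 1.27 (0.000277), and without RYGB 11 it was 1.18 (0.000218).

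Irs2, the other adaptor, did not pass the test. Its range was 54.4 to 95.9 CPM in sham and 62.9 to 108 CPM in RYGB animals, with medians of 77.8 and 85.4 CPM. The log2 fold change was 0.13 ± 0.10 with a 95% interval from -0.07 to 0.32 (adjusted p = 0.388). A change as large as that of Irs1 lay outside this interval, although the difference between the adaptors was not tested.

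Pik3r1 rose slightly. In batch A, sham animals had 72.9, 75.8, 74.5, 86.7 and 80.6 CPM and RYGB animals 80.3 to 138 CPM with a median of 89.8 CPM. In batch B, sham animals had 70.0 to 99.5 CPM with a median of 84.3 CPM and RYGB animals 95.5, 100 and 113 CPM. Both pairs of groups overlapped. Pik3r1 had a log2 fold change of 0.26 ± 0.08 (adjusted p = 0.023), and one of 0.29 without the 12 libraries (0.0313).

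Foxo1, the transcription factor that AKT inhibits (chr2:141451234-141527016, plus strand), was measured in batch A sham animals at 8.62, 9.71, 2.66, 2.99 and 4.07 CPM. RYGB animals of batch A had 4.47 to 16.8 CPM with a median of 12.4 CPM. In batch B sham animals ranged from 2.33 to 11.6 CPM with a median of 4.57 CPM, and RYGB animals had 10.9, 10.3 and 9.13 CPM. The highest sham values, 9.71 CPM in sham 2 and 11.6 CPM in sham 10, came from libraries poor in hypothalamic markers. Foxo1 had a log2 fold change of 0.93 ± 0.25 (adjusted p = 0.0113), 1.03 ± 0.33 within batch A (0.0418) and 0.92 ± 0.41 within batch B (0.171). Without the 12 libraries Foxo1 passed the fold threshold, at 1.37 (0.00809), and Irs1 and Foxo1 were then the 2 members called.

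**Figure D1:**
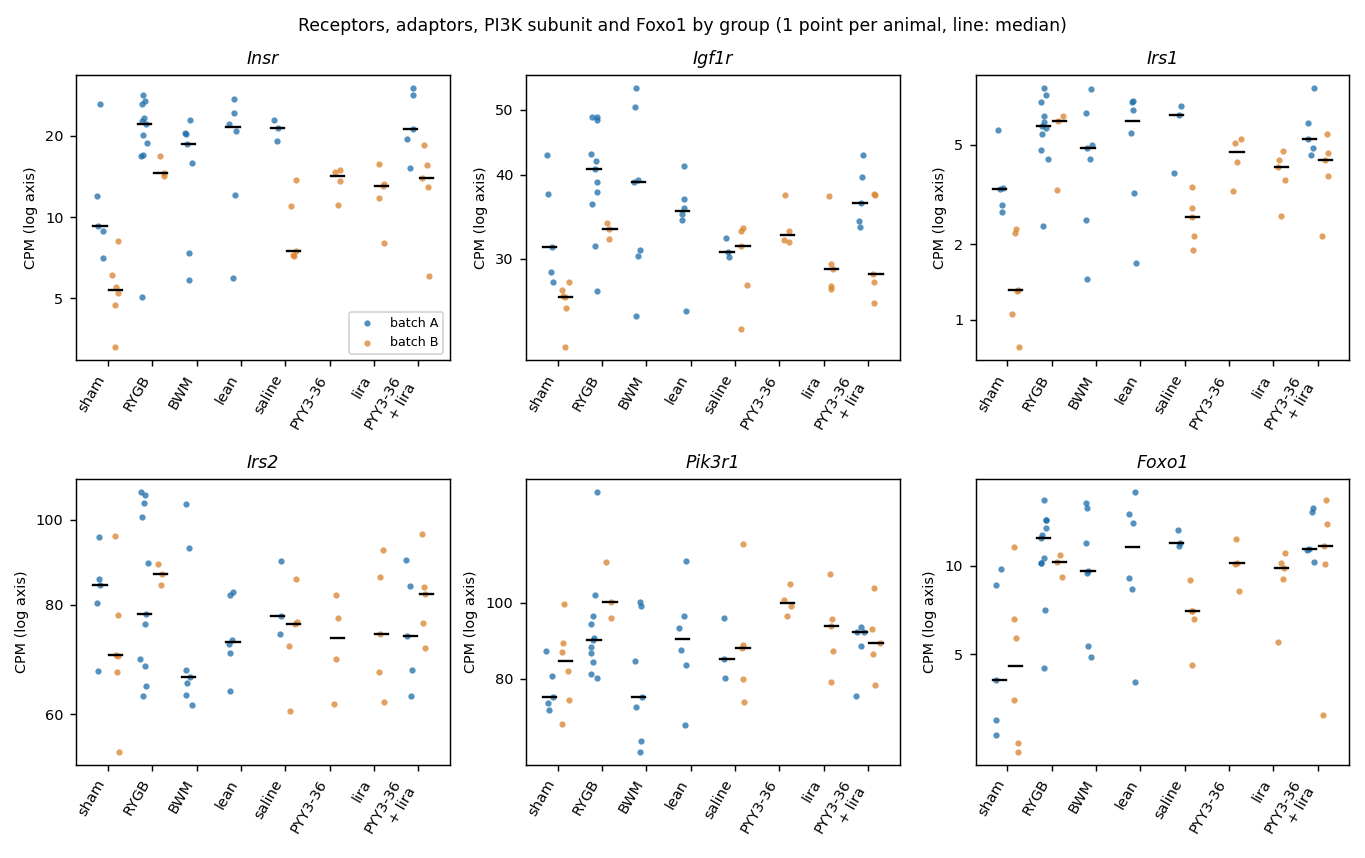
CPM on a log axis of the receptor genes Insr and Igf1r, the adaptor genes Irs1 and Irs2, Pik3r1 and Foxo1 in the 8 groups, with 1 point per animal, batch A in blue, batch B in orange, and a line at the median of each group and batch. In batch B the 3 RYGB animals lay above all 6 sham animals for Insr, Igf1r and Irs1, as for 7.54% of all genes tested. In batch A 1 sham animal reached 26.1 CPM of Insr.

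Of the ligands and binding proteins, Igfbp5 alone had an adjusted p under 0.05 with the batch term. Igfbp5 and Igfbp2, both encoding secreted proteins that bind the IGFs, are neighbours on opposite strands of chromosome 9 (chr9:80154230-80166813 and chr9:80118029-80144804). Igfbp5 was measured at 24.8, 8.92, 31.4, 5.61 and 4.94 CPM in batch A sham animals and at 4.76 to 55.3 CPM with a median of 17.2 CPM in RYGB animals. In batch B it was 2.62 to 7.25 CPM with a median of 4.78 CPM in sham and 21.6, 26.2 and 32.4 CPM in RYGB animals. The groups thus overlapped in batch A, and in batch B every RYGB animal was above every sham animal, as held for 7.54% of all genes. Igfbp5 had a log2 fold change of 1.29 ± 0.42 (adjusted p = 0.033), with 0.63 ± 0.54 within batch A (0.487) and 2.47 ± 0.67 within batch B (0.036). The adjusted p rose to 0.118 without the 12 libraries, at a value of 1.15. It also passed 0.05, reaching between 0.0503 and 0.0703, on leaving out any 1 of 10 animals, namely RYGB 3, 9, 12, 13 or 14 or sham 2, 4, 5, 6 or 8.

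Igf2 (chr1:215828102-215839081, minus strand) was higher in RYGB animals of batch A and did not pass the test in batch B. In batch A the sham animals had 33.3, 40.1, 45.6, 47.6 and 52.0 CPM, and the 11 RYGB animals 61.8 to 1694 CPM with a median of 275 CPM. In batch B sham animals ranged from 89.6 to 696 CPM with a median of 105 CPM, and RYGB animals had 108, 92.4 and 78.4 CPM. Sham 11 had the 696 CPM, and the other batch B sham animals at most 191 CPM. Every RYGB animal of batch A was above every sham animal, as held for 0.293% of all genes, and in batch B the groups overlapped. Igf2 had a log2 fold change of 3.49 ± 0.78 within batch A (adjusted p = 0.00744) and of -1.21 ± 0.89 within batch B (0.448). The difference between batches, 4.69 ± 1.22, had an adjusted p of 0.13 with edgeR and 0.0104 with DESeq2, and with both batches the value was 1.13 ± 0.77 (edgeR adjusted p = 0.333), or 1.78 without sham 11 (0.0728).

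Igfbp2 likewise passed the test in batch A and not in batch B. Batch A sham animals had 21.3, 30.4, 12.4, 37.0 and 33.6 CPM and RYGB animals 12.6 to 523 CPM with a median of 90.6 CPM. Batch B sham animals had 14.9 to 145 CPM with a median of 34.1 CPM, and RYGB animals 31.5, 28.3 and 17.2 CPM. The highest batch B sham value was again that of sham 11, and the next was 67.6 CPM. Igfbp2 differed by a log2 of 2.40 ± 0.72 within batch A (adjusted p = 0.0304), of -1.05 ± 0.87 within batch B (0.513) and, with both batches, of 1.08 ± 0.67 (0.279). The difference between batches was 3.45 ± 1.15 (0.222).

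Igf1, the other ligand, did not pass the test at 3.02 to 11.3 CPM in sham and 4.14 to 16.4 CPM in RYGB animals. Its log2 fold change was 0.28 ± 0.26, with a 95% interval from -0.23 to 0.80 (adjusted p = 0.473).

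**Figure D2:**
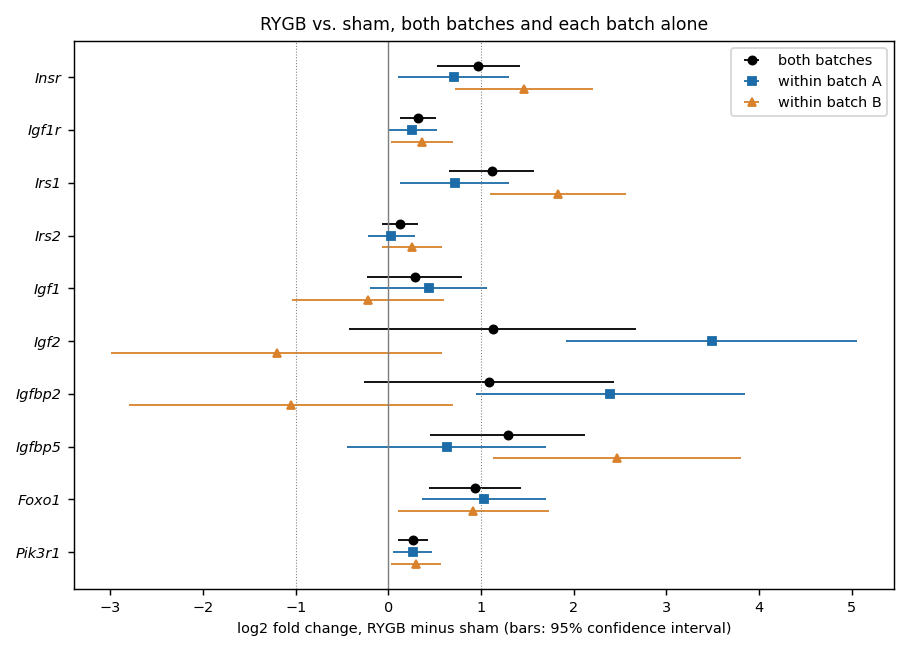
Log2 fold change of RYGB minus sham animals for each member with both batches and the batch as a term (black), within batch A (blue) and within batch B (orange), with 95% confidence intervals as bars and dotted lines at the fold threshold. Insr, Irs1 and Foxo1 were above 0 in both batches, whereas Igf2 stood at 3.49 in batch A and at -1.21 in batch B.

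In batch B, 4 members (Insr, Igf1r, Irs1 and Igfbp5) were higher in every RYGB than in every sham animal, as were 7.54% of all genes tested. In batch A this held for 1 member, Igf2. Within each batch 3 members were called, Igf2, Igfbp2 and Foxo1 in batch A beside 3.09% of all genes, and Irs1, Insr and Igfbp5 in batch B beside 1.55%.

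Markers of other tissue moved with Igf2 and Igfbp2. The summed level of 8 meninges markers was 38.5 to 76.2 CPM in batch A sham, 57.4 to 1790 CPM in batch A RYGB, 49.2 to 478 CPM in batch B sham and 90.1 to 128 CPM in batch B RYGB animals, and no marker was at 0 in any library. None of the 9 meninges marker rows tested had an adjusted p under 0.05 in RYGB vs. sham, with a median log2 fold change of 1.37 and all 9 above 0. These rows cover 8 genes, as Ogn had a second row with the same lowest, median and highest CPM, which also entered the sums. Of 7 choroid plexus markers, 1 was higher at an edgeR adjusted p under 0.05 and 6 were above 0, with a median of 1.28. With scores for pituitary, choroid plexus and meninges markers in the model, Igf2 stood at -0.07 on the log2 scale (adjusted p = 0.834) and Igfbp2 at -0.37 (0.258). Igfbp5 was then at 0.66 (0.215) and Igf1r at 0.27 (0.082). In the same model Insr stood at 1.12 (adjusted p = 0.00181), Irs1 at 1.27 (0.000743), Foxo1 at 1.01 (0.0105) and Pik3r1 at 0.29 (0.0175).

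Ribosomal protein genes moved opposite to Insr, Irs1 and Foxo1 between RYGB and sham animals. The ribosomal protein score ran from 0.21 to 0.73 in batch B sham animals and from -0.15 to 0.05 in batch B RYGB animals, and in batch A its median was 0.02 in sham and -0.27 in RYGB animals. RYGB 11, with the highest score, had the lowest Insr, Igf1r, Irs1, Igfbp5 and Foxo1 of the RYGB animals of its batch. Without it the adjusted p was 0.00502 for Igf1r, 0.0112 for Igfbp5, 0.00236 for Foxo1 and 0.00961 for Pik3r1. With the score as a covariate 0 members had an adjusted p under 0.05, and over all 21871 genes the number fell from 2853 to 88. In that fit the log2 fold changes were 0.34 for Insr (adjusted p = 0.156), 0.57 for Irs1 (0.0874), 0.44 for Foxo1 (0.288), 0.66 for Igfbp5 (0.387), 0.17 for Igf1r (0.327) and 0.22 for Pik3r1 (0.183). Across all genes, the median log2 fold change of RYGB vs. sham went from -0.24 for genes with under 1 kb of merged exons to 0.11 for those of 8 kb or more. Insr and Irs1 have 5399 and 5354 bases of exon, Igf1r 11461 and Pik3r1 10472, Foxo1 2560 and Igfbp5 1627. The score came from the same libraries, and its ranges in RYGB and sham animals of batch B did not overlap. The fit with the score therefore cannot tell RNA composition from treatment. The part of RNA length or composition in these results was not tested.

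**Figure D3:**
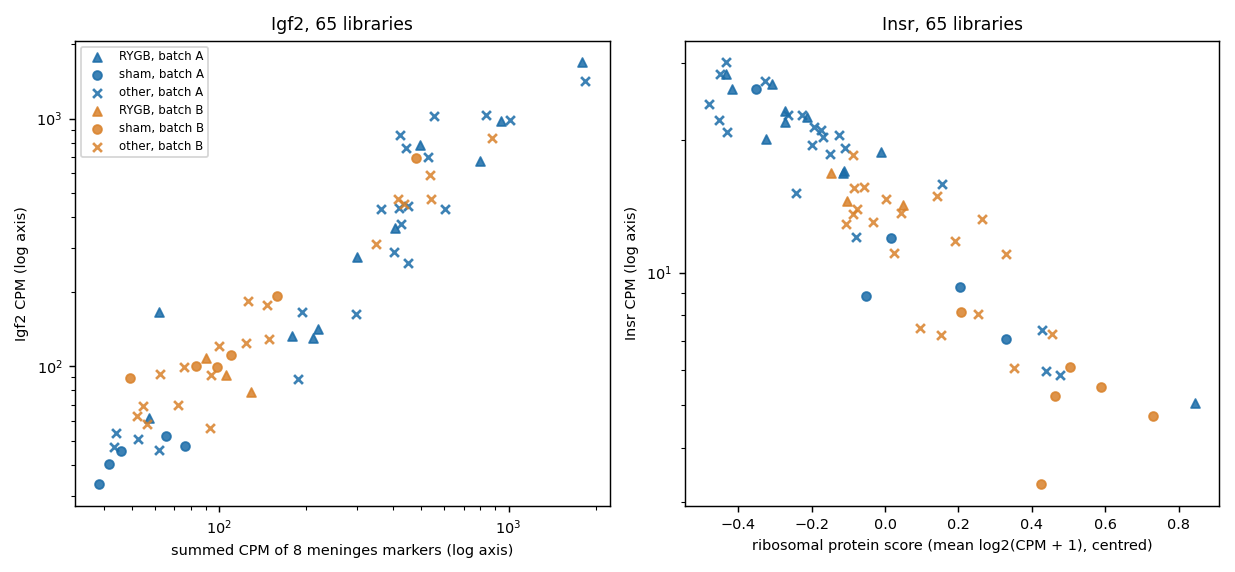
Left, Igf2 CPM against the summed CPM of 8 meninges markers, both on log axes, and right, Insr CPM on a log axis against the ribosomal protein score, in all 65 libraries, with triangles for RYGB, circles for sham, crosses for the other groups, blue for batch A and orange for batch B. The batch A sham libraries sat at 33.3 to 52.0 CPM of Igf2 and at or under 76.2 CPM of meninges markers, and RYGB 11 sat at the highest ribosomal score, 0.84, with 5.05 CPM of Insr.

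BWM vs. sham asked what weight loss by food restriction alone did. With both batches, 0 of the 10 members were called by edgeR, beside 0.274% of all genes, while 7 members had an unadjusted p under 0.05, as 12.3% of all genes did, 9 had a log2 fold change above 0, as 49.9% did, and DESeq2 called 1 (Igf1). Igf1, which encodes insulin-like growth factor 1, came nearest. It was measured at 6.17 to 27.9 CPM with a median of 13.4 CPM in 7 BWM animals and at 8.90, 7.33, 4.23, 6.88 and 3.02 CPM in the sham animals of the same batch, and 6 of 7 BWM animals were above the sham median. Its log2 fold change was 1.13 ± 0.31 (adjusted p = 0.0774), 1.18 ± 0.34 within batch A (0.0328), and 1.24 without the 12 libraries (0.0572). With the marker scores in the model it was 0.82 (0.283). All 8 anterior pituitary markers had a log2 fold change above 0 in BWM vs. sham, 5 of them with an edgeR adjusted p under 0.05. Their median was 5.50, with 76838 CPM of these markers in BWM 5. The 9 meninges marker rows had a median of 1.85 with 0 past the test. Without BWM 5, Igf1 was at 1.09 (adjusted p = 0.196). Leaving out BWM 1 or BWM 2 brought the adjusted p to 0.0289 and 0.0354, and leaving out BWM 7 raised it to 0.441 at a value of 0.86.

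Within batch A, where all BWM animals belonged, Igf2 and Igfbp2 were called too, so that 3 members were called beside 3.05% of all genes. Igf2 ran from 47.1 to 1421 CPM with a median of 760 CPM in BWM animals, and its log2 fold change against batch A sham was 4.05 ± 0.83 (adjusted p = 0.00506). Igfbp2 ran from 28.4 to 740 CPM with a median of 195 CPM, at a log2 fold change of 3.29 ± 0.79 (0.0106). BWM 1 had the lowest Igf2 of its group and BWM 5 the lowest Igfbp2. Their meninges markers summed to 43.4 and 187 CPM, the lowest sums of a group that reached 1844 CPM. With both batches the values were 1.93 ± 0.88 (0.349) and 2.22 ± 0.78 (0.192), and with the marker scores in the model 0.21 (0.805) and 0.43 (0.566).

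Insr, Irs1 and Foxo1 did not pass the test in BWM animals. Their log2 fold changes against sham were 0.49 (95% interval -0.05 to 1.04), 0.65 (0.09 to 1.20) and 0.77 (0.17 to 1.37), with edgeR adjusted p of 0.463, 0.307 and 0.256. The direct comparison, RYGB vs. BWM, called 0 members by edgeR and by DESeq2, beside 0.274% of all genes by edgeR, with 2 members and 12.6% of all genes at an unadjusted p under 0.05, and 6 members and 45.3% of all genes above 0. Insr was at 0.48 (-0.03 to 0.99), Irs1 at 0.47 (-0.05 to 0.99) and Foxo1 at 0.16 (-0.39 to 0.71). The intervals included differences close to a log2 of 1 for Insr and Irs1. Igf1 was lower in RYGB than in BWM animals by value, at -0.85 (-1.39 to -0.31, adjusted p = 0.209), and 1 of 14 RYGB animals was above the BWM median.

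Lean vs. sham called 0 members by edgeR and by DESeq2, and 0% of all genes by edgeR, with 4 members and 12.2% of all genes at an unadjusted p under 0.05, and 9 members and 47.6% of all genes above 0. Irs1 was at 0.82 ± 0.28 (adjusted p = 0.265), Foxo1 at 0.89 ± 0.31 (0.265), Insr at 0.73 ± 0.28 (0.304) and Igf1 at 0.90 ± 0.32 (0.274). This comparison and RYGB vs. sham share the sham animals. Lean 6 had the lowest Insr of its group, 5.96 CPM, against a median of 21.5 CPM, and without it Insr, Irs1 and Foxo1 were at 0.91, 1.01 and 1.07 (0.0439, 0.0336 and 0.0373). Without sham 1, Insr was at 1.01 (0.0448). Without the 12 libraries Insr, Irs1 and Foxo1 were at 0.71, 0.87 and 1.47 (0.462, 0.398 and 0.218).

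**Figure D4:**
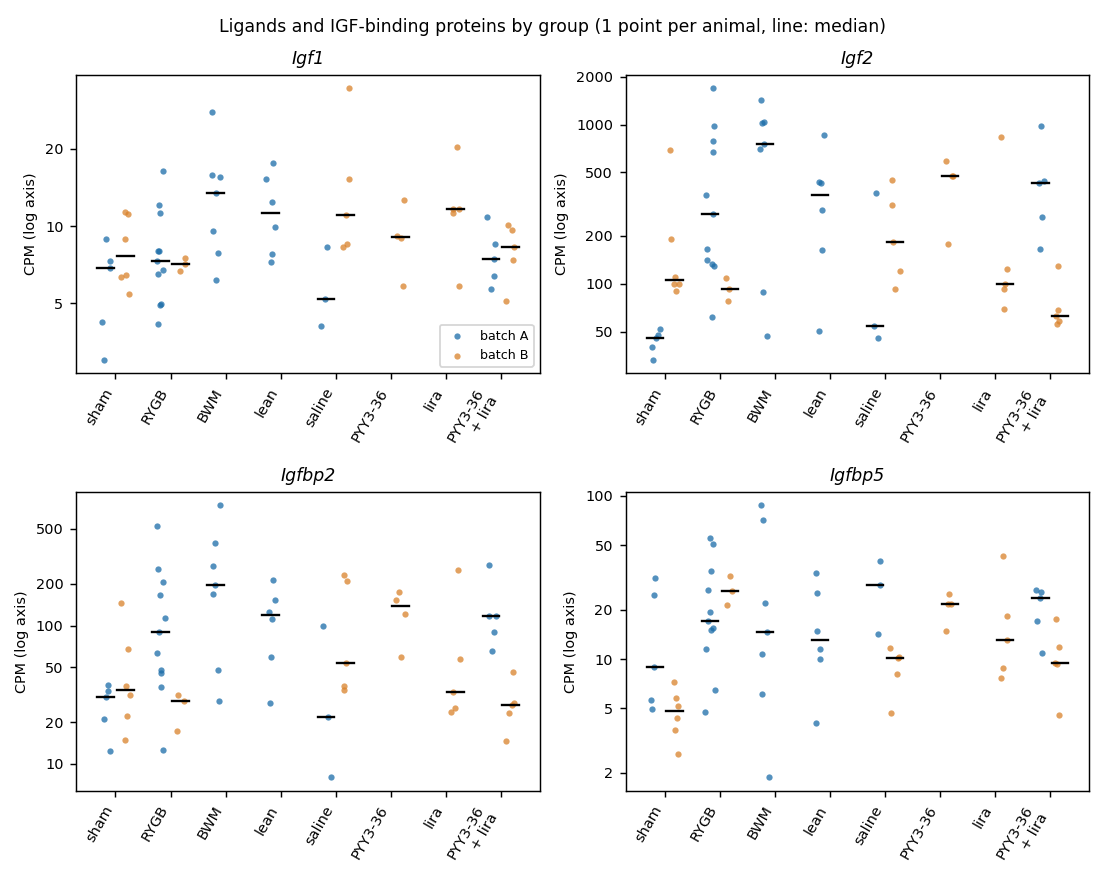
CPM on a log axis of the ligand genes Igf1 and Igf2 and of the binding protein genes Igfbp2 and Igfbp5 in the 8 groups, with 1 point per animal, batch A in blue, batch B in orange, and a line at the median of each group and batch. Igf2 in batch A was 33.3 to 52.0 CPM in sham animals and reached 1694 CPM in RYGB and 1421 CPM in BWM animals.

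Hormone treatment vs. saline asked whether the gut hormones changed the same genes. For PYY3-36, liraglutide and PYY3-36 + liraglutide, with the batch as a term, 0 members were called by edgeR and by DESeq2. With edgeR 0 members had an unadjusted p under 0.05, and 0%, 0% and 0.00457% of all genes were called. An unadjusted p under 0.05 was found for 7.54%, 2.08% and 2.53% of all genes. Within batch B it was found for 1, 0 and 3 members, beside 10.1%, 3.56% and 5.88% of all genes. Within batch A, PYY3-36 + liraglutide had 0 such members, beside 0.727% of all genes. With the batch as a term, a log2 fold change above 0 was found for 8, 8 and 7 members, beside 48.6%, 45.7% and 46.2% of all genes. Insr was at 0.42 (95% interval -0.25 to 1.09), 0.29 (-0.35 to 0.92) and 0.35 (-0.17 to 0.86) on the log2 scale. Irs1 was at 0.61 (-0.07 to 1.29), 0.41 (-0.24 to 1.05) and 0.37 (-0.15 to 0.89), and Foxo1 at 0.35 (-0.38 to 1.08), 0.18 (-0.50 to 0.87) and 0.42 (-0.13 to 0.98). For PYY3-36 the intervals of Insr, Irs1 and Foxo1 held both 0 and the values of RYGB vs. sham, so a difference of that size was not detectable apart from none. In Irs2 and Pik3r1 the intervals were narrower, and for liraglutide they ran from -0.26 to 0.28 and from -0.19 to 0.26.

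The batches weighed on the hormone groups too. Insr was measured at 22.8, 21.4 and 19.2 CPM in the 3 saline animals of batch A and at 7.20 to 13.7 CPM in the 5 of batch B. All PYY3-36-treated (11.1 to 14.9 CPM) and liraglutide-treated animals (8.03 to 15.7 CPM) were in batch B. Within that batch the values for Insr were 0.54 ± 0.36 and 0.41 ± 0.34, with adjusted p of 0.573 and 1. For PYY3-36 + liraglutide, Igf2 was at 1.53 ± 0.92 within batch A and at -1.62 ± 0.77 within batch B, and Igfbp2 at 1.63 ± 0.91 and -2.02 ± 0.77. The median meninges marker sum was 449 CPM in PYY3-36 + liraglutide and 61.7 CPM in saline animals of batch A, and 56.4 and 125 CPM in batch B. The part of these markers in the values within each batch was not tested. The differences between batches, 3.16 for Igf2 and 3.65 for Igfbp2, had an adjusted p of 1 with edgeR.

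Sham vs. saline compared the control groups. In this comparison 0 members were called by edgeR and by DESeq2, beside 0.00914% of all genes by edgeR, and 4 had an unadjusted p under 0.05, as 12.9% of all genes did. The log2 fold change was above 0 for 1 member, Irs2, beside 52.4% of all genes, with Insr at -0.72 ± 0.25 (adjusted p = 0.247), Irs1 at -0.69 ± 0.26 (0.27) and Foxo1 at -0.68 ± 0.27 (0.296). Without sham 1, Insr was at -0.93 (0.0427). Against saline, RYGB animals showed 0 called members by both tools, beside 0.00457% of all genes, and 1 had an unadjusted p under 0.05, as 2.08% did, with Insr at 0.25 (-0.25 to 0.74), Irs1 at 0.42 (-0.08 to 0.92) and Foxo1 at 0.25 (-0.28 to 0.78). BWM animals against saline likewise showed 0, beside 0.0412% of all genes, and 0 with an unadjusted p under 0.05, where 6.47% of all genes had one.

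**Figure D5:**
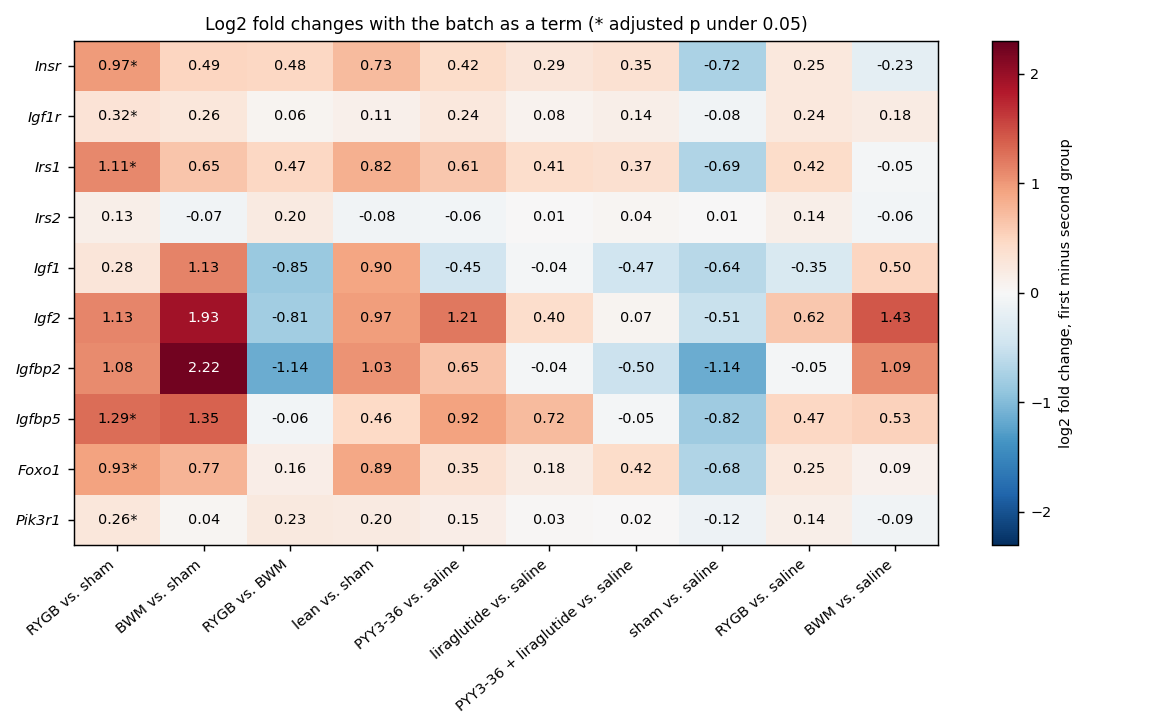
Log2 fold change of the 10 members in 10 comparisons, first minus second group, with the batch as a term, red for higher and blue for lower in the first group, and a star at an adjusted p under 0.05. Stars stand in the RYGB vs. sham column only, at Insr, Igf1r, Irs1, Igfbp5, Foxo1 and Pik3r1, and the sham vs. saline column is below 0 for 9 members.

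Further genes of the pathway were taken from a list of 91, of which 89 were tested. In RYGB vs. sham, 11 were higher and 2 lower at an adjusted p under 0.05, beside 13% of all genes in either direction, and the median log2 fold change of the 89 was 0.10. Past the fold threshold as well were 4 genes, all higher, beside 2% of all genes. Irs4, an adaptor known from the hypothalamus, was at 2.03 ± 0.63 (adjusted p = 0.0271), the FOXO family member Foxo3 at 1.04 ± 0.26 (0.00744), Eif4ebp2, a translational repressor under mTORC1, at 1.04 ± 0.18 (0.000738), and Pdk4, a FOXO target that inhibits pyruvate dehydrogenase, at 1.06 ± 0.26 (0.0057). Within batch A these 4 were at 2.71 (0.0369), 0.74 (0.169), 0.93 (0.0159) and 1.14 (0.027), in this order. Within batch B they were at 1.95 (0.2), 1.52 (0.044), 1.36 (0.0133) and 0.64 (0.377). Of all 13 genes past the adjusted p, 5 kept it within batch A and 4 within batch B. With the replicate number as a block Irs4 was at 1.79 (0.177). Among those higher with smaller changes were the IGF-2 clearance receptor gene Igf2r (0.27), the adaptor gene Crkl (0.76), the PI3K subunit gene Pik3r3 (0.43), the AKT phosphatase gene Phlpp2 (0.74), the mTORC2 gene Rictor (0.30) and the Ras activator gene Sos1 (0.37). Rps6kb2, an S6 kinase, and Hras, a Ras GTPase, were lower, at -0.43 and -0.43.

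By role, 2 of 10 further receptor adaptors, 1 of 5 PI3K subunits, 1 of 6 genes of AKT and its kinases, 1 of 9 AKT substrates and FOXO factors and 1 of 11 FOXO targets were higher, beside the 6.52% of all genes that were higher. The inhibitors of receptors and adaptors (9 genes) and the other IGF-binding proteins with their proteases (10 genes) had 0 in either direction. The kinase genes Akt1 and Akt2 were at -0.07 ± 0.06 and -0.01 ± 0.12, with adjusted p of 0.417 and 0.962. Irs4 ranged from 0.165 to 11.7 CPM in batch A sham and from 6.35 to 97.6 CPM in batch A RYGB animals, from 0.11 to 32.7 CPM in batch B sham and from 36.0 to 43.0 CPM in batch B RYGB animals. Without the 12 libraries Irs4 was at 1.63 (adjusted p = 0.0465), and 10 of the listed genes were higher and 0 lower. With the ribosomal protein score as covariate 2 were higher, Eif4ebp2 (0.57, adjusted p = 0.0278) and Pdk4 (1.14, 0.0336), and 0 lower. In the 9 other comparisons between groups 0 of the 89 had an adjusted p under 0.05 by edgeR.

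Other genes varied with the members across animals. Likeness was measured by the Pearson correlation of log2(CPM + 1) over the 65 libraries after the mean of each group and batch was removed, as a description in which all points share library depth and composition. Insr was most like the kinesin genes Kif1b (0.95) and Kif1a (0.94) and Nipal3 (0.93). Among members it was most like Irs1 (0.83) and Foxo1 (0.77). Igf2 was most like Ptgds (0.94), which encodes prostaglandin D2 synthase, and the matrix genes Bgn (0.93) and Fbln1 (0.93), and Igfbp2 was most like Slc13a4 (0.92), Igf2 (0.92) and Ctsk (0.89). Irs1 was most like Cds2, Lifr and Klhl11 (0.86 to 0.87), Foxo1 like Cdk12, Pcdhgb4 and Pcdhgc3 (0.86 to 0.87) and Irs2 like Gfod2, Gnaz and Fam120b (0.77 to 0.82). Igfbp5 was most like Ece1, Iqgap1 and Tpp1 (0.80 to 0.81), Igf1r like Nfib, Edem1 and Ccnd2 (0.71 to 0.74), Pik3r1 like Slc35a5, Igsf11 and Tacc1 (0.69 to 0.71) and Igf1 like Srpx2, Stat6 and Gjc1 (0.64 to 0.68).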

How the data were processed

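RNA of the hypothalamus was measured in 65 rats. Groups, replicate numbers and batches came from the labels, which do not explain the lean group. The authors made stranded poly-A libraries, trimmed reads with cutadapt 1.16 (per the labels), mapped them with STAR 2.7.2b to Rnor_6.0 and counted them on exons with featureCounts 1.6.4. Reads with several positions were shared as fractions, so the deposited values are estimated counts per gene, not normalized. They were not whole in 30.3% of nonzero values, at a tolerance of 1e-06, and were rounded, which changed a library total by at most 0.001%. The exon length deposited beside them, the authors' merged length per gene, was used for levels per kb.

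Genes were kept by filterByExpr (minimum count 10, minimum total 15) and scaled by TMM. They were fitted in R 4.3.3 with the robust quasi-likelihood model of edgeR 4.0.16, with terms for group and batch and all libraries in 1 fit. The fit was also run on simulated counts without batch or tissue differences. The changes planted there were larger than most members showed, so that run does not cover the setting of these data. Values within a batch and differences between batches came from a fit of the 12 group-by-batch means. P-values were adjusted by Benjamini-Hochberg. Alternatives were DESeq2 1.42.0, its size factors, no filter, no batch term, the replicate number as a block, marker or ribosomal scores as covariates, only the libraries of both groups, no fold threshold, and leaving out each animal. The fit without 12 libraries was chosen after seeing the data. Intervals are 95% confidence intervals of the fit. Figures and tables were made in Python 3.11.15 with pandas 2.3.3, numpy 2.4.6 and matplotlib 3.10.9.

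The members, the 91 pathway genes and the marker lists were chosen with earlier results of these data known. The text names the 10 members in every comparison, pathway genes past the thresholds, the most abundant of a role, and the 3 genes most like each member. A pathway gene is not reported here. No 2 libraries of a group and batch (168 pairs) were identical or agreed within counting noise, the lowest chi-square per degree of freedom being 13.3. The labels state no litters or cages, so p-values measure the spread between these animals. Same-numbered animals deviated together in every pair only for liraglutide vs. saline (5 pairs, correlations from 0.32 to 0.61), where the block changed no call. Of these 5 liraglutide animals, 4 correlated best with the saline animal of their own number. The pairing comes from the numbers alone. Saline 1, 2 and 3 were in batch A and all liraglutide animals in batch B, so these numbers paired animals of different periods. Sequences are from RefSeq (GRCr8), with no genome used.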

Additional observations from a re-analysis of the deposited data

Results flagged for a closer look

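Of 90 sets of 1 gene in 1 group and batch with 4 to 10 animals, 9 held a value set apart from the others by Dixon's test at 95%. For independent, normally distributed values chance alone flags about 1 set in 20. That rate does not carry over to these sets. They hold CPM on the raw scale, and members such as Igf2 and Igfbp2 varied together (correlation 0.92). Sham 1 (batch A) stood apart in Insr, at 26.1 CPM where the others had 7.07 to 12 CPM, and in Irs1, at 5.73 CPM where the others had 2.69 to 3.36 CPM. It is the library with 753 CPM of thalamus and habenula markers. Liraglutide 1 (batch B) stood apart in Igf2 (834 CPM, others 69.5 to 124 CPM), in Igfbp2 (255 CPM, others 23.6 to 57.5 CPM) and in Igf1r (37.2 CPM, others 27.1 to 29.5 CPM). Its meninges markers summed to 874 CPM, the highest of its group. Igf2 was also set apart in sham 11 (batch B, 696 CPM, others 89.6 to 191 CPM), whose meninges markers summed to 478 CPM, and in PYY3-36 + liraglutide 9 (batch B, 129 CPM, others 56.2 to 68.8 CPM). Igfbp2 was set apart in PYY3-36 + liraglutide 1 (batch A, 275 CPM, others 65.1 to 118 CPM), and Igf1 in saline 4 (batch B, 34.4 CPM, others 8.30 to 15.2 CPM), a library poor in hypothalamic markers. The part of these markers in the values was not tested.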

How the results depend on the processing

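In RYGB vs. sham, 2 members were called, Irs1 and Igfbp5. The count was 6 without a fold threshold, 6 without the batch term and 0 with the ribosomal protein score as covariate (over all genes 2853 with an adjusted p under 0.05 became 5587 without the batch term and 88 with the score), and leaving out 1 animal gave 1 to 4. It was 1 without RYGB 3, 9, 12, 13 or 14 or sham 4, 5, 6 or 8, where Igfbp5 missed the adjusted p, and 4 without sham 1. In BWM vs. sham, 0 members were called. The count was 3 within batch A, 3 without the batch term, 1 with only the libraries of both groups, 1 with DESeq2 and 0 to 1 on leaving out 1 animal, with 1 without BWM 1 or BWM 2. Over all genes the number with an adjusted p under 0.05 moved as well, from 70 to 1154, 2183, 513 and 237 in the first 4 of these settings. In lean vs. sham the count of 0 became 3 without the batch term, where the number over all genes went from 0 to 2339, and 0 to 2 on leaving out 1 animal, with 2 without lean 6 and 1 without sham 1. The difference between batches of RYGB vs. sham called 0 members by edgeR and 1, Igf2, by DESeq2, beside 0 and 163 of all genes with an adjusted p under 0.05. The causes were not tested. Every count for the hormone treatments, RYGB vs. BWM and the comparisons with saline stayed at its value. Without the 12 libraries poor in hypothalamic markers, a setting chosen after seeing the data, the counts were 2 in RYGB vs. sham and 0 in the others.

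With the replicate number as a block, RYGB vs. sham called 3 members, Insr (1.0, adjusted p = 0.0259), Irs1 (1.07, 0.0193) and Foxo1 (1.07, 0.0356), while Igf1r, Pik3r1 and Igfbp5 had adjusted p of 0.0668, 0.0807 and 0.276. The block left 0 members called in the other comparisons between groups. In RYGB vs. sham 4 of 11 same-numbered pairs correlated above 0.1 and 0 animals correlated best with their own number. No pairing by number was thus seen in these values, which cannot show how the animals were handled. Insr, Irs1, Foxo1 and Pik3r1 kept an adjusted p under 0.05 in all 25 fits without 1 animal, Igf1r in 24 and Igfbp5 in 15. At 16 counts in the lowest library, Irs1 was the member limited most by depth.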
